A study of Mus musculus with 12 samples.

Results

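The comparison asked what AdipoAI does to resting macrophages, in the absence of an inflammatory stimulus. The cells were RAW264.7, a macrophage line of mouse origin. Their RNA was measured on 1-colour arrays carrying probes for mouse lncRNAs and mRNAs, and 6 of the 12 arrays belong to this comparison, 3 of cells given AdipoAI for 24 h and 3 of cells given the solvent DMSO for 24 h. The other 6 arrays are of cells given LPS, a bacterial lipopolysaccharide, for 6 h at 100 ng/ml and of cells given AdipoAI for 24 h and then LPS for 6 h (AdipoAI+LPS). They share the normalization and the estimate of spread behind every p-value of the main fit. Their levels are given below only to set the AdipoAI results beside those in LPS-treated cells. The sources used here do not give the AdipoAI concentration, whether the LPS cells had DMSO first, or whether the arrays of a group came from separate cultures, so p-values measure the spread between these samples, which may be technical. AdipoAI replicates 1 and 2 and all DMSO arrays were in the first of 2 scans, and AdipoAI replicate 3 was in the second.

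AdipoAI is a small-molecule agonist of the adiponectin receptors. Adiponectin is a hormone of fat tissue whose receptors, AdipoR1 and AdipoR2, signal through AMPK and PPARα and act on fatty acid oxidation and glucose use. In macrophages adiponectin is best known for damping the response to LPS, which is sensed by TLR4 and leads through NF-κB to the production of cytokines.

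The 6 arrays each had between 29799 and 32969 probes that the scanner software called well above background, with 32969, 31902 and 29936 on the DMSO arrays and 29799, 30217 and 29821 on the AdipoAI arrays. Probes were tested when they passed that call on at least 3 of these 6 arrays, which 31141 of 60694 probes (51.3%) did. Of the tested probes, 30810 carry only the array maker's numbered identifiers, which nothing used here pairs with a gene or marks as lncRNA or mRNA, so results over all probes count probes. The exceptions are 14 probes with RefSeq accessions and 317 probes whose names contain lincRNA. Of 205 genes in 11 prepared lists (adiponectin receptors and AMPK, cytokines, lipid handling, macrophage identity and others), 12 had a probe that could be named, and of 22 cell type markers none did, so the macrophage label was not checked against markers here.

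AdipoAI moved many probes in resting cells, about evenly in both directions and mostly by less than 2-fold. Arrays within a group differed from each other, probe by probe, by a median of 0.165 to 0.247 on the log2 scale in DMSO and 0.226 to 0.248 in AdipoAI, and arrays of different groups by 0.265 to 0.381. The Pearson correlation across probes was 0.989 to 0.994 among DMSO arrays, 0.988 to 0.990 among AdipoAI arrays and 0.973 to 0.985 between them. Each of the 9 pairs across groups was thus further apart than each of the 6 pairs within a group, with AdipoAI replicate 2 the nearest to DMSO. These are bulk RNA values on a common scale, in which fewer cells with a transcript and less of it per cell cannot be told apart.

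With limma and a Benjamini-Hochberg adjusted p under 0.05, 5031 of 31141 probes (16.2%) differed, 2394 (7.69%) higher and 2637 (8.47%) lower with AdipoAI. Of these, 1503 changed by under 1.5-fold, 2194 by 1.5- to 2-fold, 1141 by 2- to 4-fold, 134 by 4- to 8-fold and 59 by over 8-fold. These sizes are as fitted. In 115, 26 and 23 of the last 3 classes no array of one group was well above background, so that for them the fitted fold takes the dim group at its measured signal and is not an exact size. Falls outnumbered rises among changes under 1.5-fold, at 862 against 641, and rises outnumbered falls among those over 8-fold, at 41 against 18, of which 14 and 9 had a group below background. At the threshold of the study's methods, an unadjusted p under 0.05 and a log2 change of at least 1.5 in size, 313 probes were higher (1.01%) and 203 lower (0.652%). With normexp background correction that split was 122 higher and 39 lower. For 5003 of the 5031 called probes (99.4%) the highest array of one group lay below the lowest of the other, against 37% of all tested probes. The test on these same arrays selects for such a separation, so the share is a description.

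The number called depended on which array was left out. Without AdipoAI replicate 3 it was 3461, of which 3178 were also among the 5031 and in the same direction. It was 2814 without DMSO replicate 2, 3094 without AdipoAI replicate 1 and 3193 without DMSO replicate 1, but 5227 without AdipoAI replicate 2 and 3632 without DMSO replicate 3. The split between rises and falls stayed close to even in each of these, with 1687 rises and 1774 falls without AdipoAI replicate 3 and 1492 rises and 1322 falls without DMSO replicate 2. The main fit takes its spread from all 12 arrays. When only the 6 AdipoAI and DMSO arrays were fitted, 4098 probes were called, 3439 of them among the 5031 and in the same direction.

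**Figure D1:**
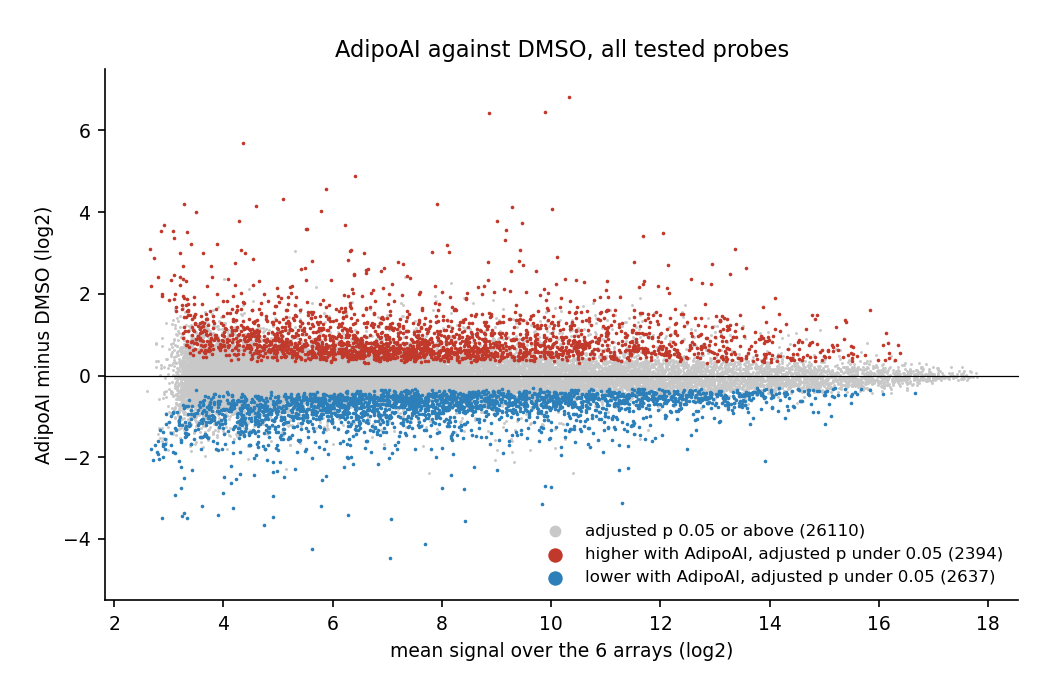
Each point is one of the 31141 tested probes, with its mean signal over the 6 arrays on the horizontal axis and AdipoAI minus DMSO on the vertical axis, both log2. Red and blue points are the 2394 probes higher and the 2637 lower with AdipoAI at an adjusted p under 0.05, and rises reach further from 0 (6.80) than falls (-4.47).

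Calls were spread unevenly over signal strength. When the tested probes were put in order of mean signal and cut into 10 groups of equal size, 8.89% of the dimmest group and 7.45% of the next were called, against 25.3% of the ninth and 17.9% of the brightest. The median standard error of the log2 change fell along the same order from 0.305 in the dimmest group to 0.122 in the brightest. The median size of a called change was 1.15 on the log2 scale in the dimmest group and 0.575 in the brightest. The called changes of dim probes were thus larger, at the median, than those of bright ones, and their errors wider. Rises and falls followed the same course, at 4.46% and 4.43% of the dimmest group and 11.3% and 14.1% of the ninth.

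Among probes well above background on all 6 arrays, the largest rises belonged to a pair of probes that went from low to high signal, ASMM10P006833 and ASMM10P031990. The normalized log2 signal of ASMM10P006833 was 5.93, 7.08 and 7.76 on the DMSO arrays and 13.61, 13.38 and 14.18 on the AdipoAI arrays. That of ASMM10P031990 was 6.12, 6.71 and 7.15 in DMSO and 13.09, 12.63 and 13.58 in AdipoAI. Neither probe had overlapping groups, and in both the DMSO arrays were the more scattered, with SDs of 0.926 and 0.517 against 0.415 and 0.477. The changes were 6.80 ± 0.387 (SE, n = 3 per group, limma adjusted p = 1.98e-06), which is 112-fold, and 6.44 ± 0.302 (adjusted p = 5.2e-07), which is 87-fold. After normexp with an offset of 50 they were 6.15 and 5.82.

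The same probes were also high in LPS-treated cells. ASMM10P006833 had a mean of 14.11 ± 0.347 (SD, n = 3) in LPS and 16.67 ± 0.0534 in AdipoAI+LPS, and ASMM10P031990 had 13.52 ± 0.406 and 16.73 ± 0.153. For both probes the range of the AdipoAI arrays overlapped that of the LPS arrays, and AdipoAI+LPS had the highest level. The effect of AdipoAI was smaller on top of LPS than in resting cells, at 2.57 and 3.21, and the difference passed the test of the interaction (-4.24, adjusted p = 0.00194, and -3.23, adjusted p = 0.00222). Whether the top of the signal scale limited the rise with LPS was not tested.

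The largest falls among such probes were those of ASMM10P028073 and ASMM10P028071, a pair of identifiers close in number. ASMM10P028073 read 9.19, 9.26 and 9.43 in DMSO and 5.10, 4.88 and 4.46 in AdipoAI, a change of -4.47 ± 0.173 (adjusted p = 1.76e-07). ASMM10P028071 read 9.75, 9.73 and 9.79 in DMSO and 5.71, 5.60 and 5.60 in AdipoAI, a change of -4.12 ± 0.0978 (adjusted p = 8.52e-09). These are falls of 22.2-fold and 17.4-fold, each many times the spread between arrays, and their size depended on the background correction, at -3.03 and -3.04 after normexp. In LPS their means were 8.11 ± 0.134 and 9.43 ± 0.101, above those with AdipoAI, and in AdipoAI+LPS they were 4.02 ± 0.224 and 4.20 ± 0.0822. For ASMM10P028071 the fall was larger with LPS (-5.24) than without it (interaction -1.12, adjusted p = 0.00147), except with normexp background correction, where the interaction was -0.27 with an adjusted p of 0.152. All 4 of these changes kept their direction and an adjusted p under 0.05 in each of the 16 alternative analyses.

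**Figure D2:**
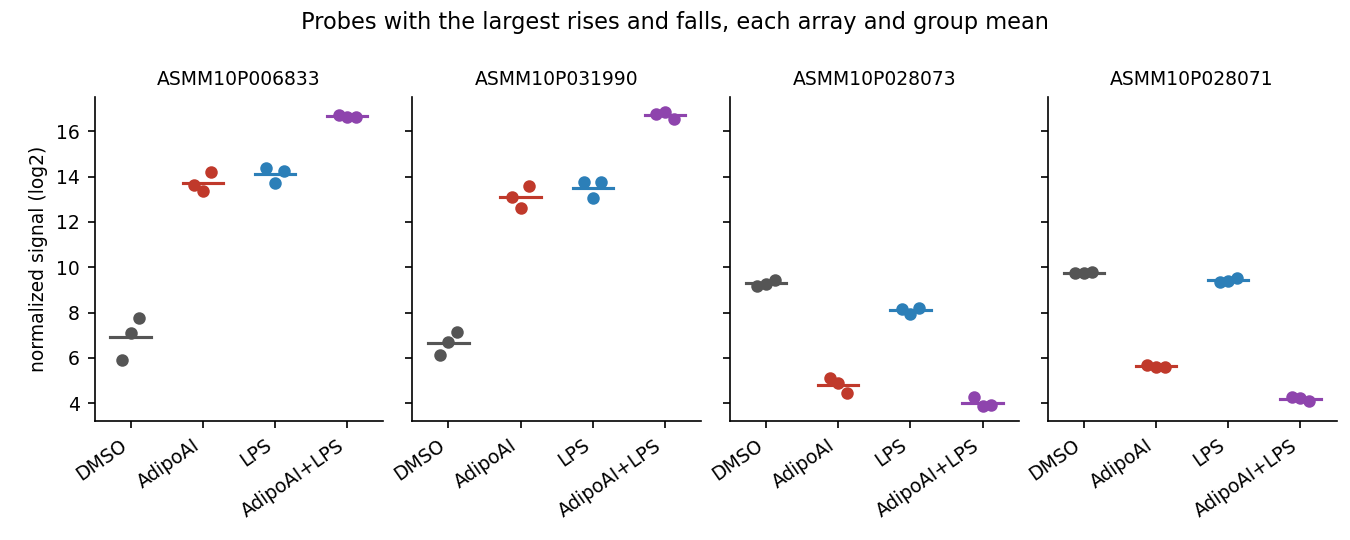
Normalized log2 signal of the 2 identifiers that rose most and the 2 that fell most among probes measured on all 6 arrays, with 1 point per array and a line at each group's mean, in DMSO, AdipoAI, LPS and AdipoAI+LPS. The first pair is low only in DMSO and highest in AdipoAI+LPS, and the second pair is low in both groups given AdipoAI.

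The next comparison is of named genes. The 15 RefSeq probes, each printed on 20 spots, are for genes used as references in expression studies or for metabolic enzymes, and their spots agreed within an SD of 0.276 log2 on any array for the 14 that passed the filter. Ldhal6b, a lactate dehydrogenase-like gene, was not well above background on any of the 6 arrays and was not tested. Of the 14, 4 changed (28.6%, against 16.2% of all probes tested), with Tfrc and Gusb higher and Nono and Rpl13a lower. Their median change was -0.067, beside -0.027 over all probes. On 9 of the 14 (64.3%) the groups did not overlap, against 37% of all tested probes. These probes were bright, with a median log2 signal of 15 against 6.41 over all probes, and each averages 20 spots. Their shares and those of all probes are thus not at equal precision.

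Tfrc and Gusb are the only members of the prepared list of endocytosis and lysosome genes with a named probe, out of 19. Tfrc, the transferrin receptor, brings iron-loaded transferrin into the cell by endocytosis. Its log2 signal was 14.96, 14.63 and 14.73 in DMSO and 15.42, 15.60 and 15.52 in AdipoAI, so that every AdipoAI array was above every DMSO array. The rise was 0.74 ± 0.117 (adjusted p = 0.00191), or 1.67-fold, the largest among the reference genes. Tfrc was also high in LPS (15.33 ± 0.0764) and no higher than with AdipoAI alone in AdipoAI+LPS (15.52 ± 0.112). The effect of AdipoAI with LPS was 0.19 (adjusted p = 0.283), and its difference from that in resting cells, -0.55, did not pass the test (adjusted p = 0.125).

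Gusb encodes the lysosomal enzyme β-glucuronidase, which breaks down glycosaminoglycans. It read 14.49, 14.36 and 14.34 in DMSO and 14.72, 14.78 and 14.85 in AdipoAI, again without overlap, a rise of 0.39 ± 0.0975 (adjusted p = 0.0221) or 1.31-fold. The call depended on single arrays and on the fit. The adjusted p was 0.066 without AdipoAI replicate 3 or with the scan as a block, 0.0831 without DMSO replicate 2 and 0.0686 without DMSO replicate 3. It was 0.0717 when only the 6 AdipoAI and DMSO arrays were fitted, 0.0757 in the first scan alone and 0.0514 with a block on the replicate number. The rise was 0.36 to 0.43 throughout. LPS cells had less Gusb, 13.49 ± 0.0646, and AdipoAI+LPS cells 14.59 ± 0.0871. The AdipoAI effect was larger there, at 1.11, and the interaction of 0.72 passed the test (adjusted p = 0.0177). Among the alternatives it did not with the scan as a block (0.65, adjusted p = 0.0954), with a block on the replicate number (adjusted p = 0.0584) or without DMSO replicate 2 (adjusted p = 0.0524).

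Nono and Rpl13a fell. Nono, an RNA- and DNA-binding protein of nuclear paraspeckles, read 12.47, 12.34 and 12.28 in DMSO and 11.77, 11.79 and 11.84 in AdipoAI, a change of -0.56 ± 0.110 (adjusted p = 0.00636). Rpl13a, a protein of the large ribosomal subunit, read 14.90, 14.92 and 14.94 in DMSO and 14.47, 14.46 and 14.56 in AdipoAI, a change of -0.42 ± 0.0939 (adjusted p = 0.0127). The groups did not overlap for either gene, and these were falls of 1.48-fold and 1.34-fold. Without DMSO replicate 2 the adjusted p of Rpl13a was 0.0502. In LPS-treated cells the AdipoAI effect was -0.36 for Rpl13a (adjusted p = 0.0227) and -0.31 for Nono (adjusted p = 0.0712), and neither differed detectably from that in resting cells (interaction adjusted p = 0.904 and 0.539).

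The other 10 reference genes did not pass the adjusted test, and their 95% intervals bound how far they moved on the normalized scale. Tbp, the TATA-binding protein of basal transcription, read 9.95, 9.50 and 9.35 in DMSO and 9.21, 9.17 and 9.24 in AdipoAI. The groups did not overlap, but DMSO was scattered and the difference of -0.39 (-0.74 to -0.05) had an adjusted p of 0.114. Gk, glycerol kinase, read 5.79, 5.80 and 5.78 in DMSO and 6.18, 5.82 and 6.12 in AdipoAI. Its difference of 0.25 (-0.02 to 0.51) had an adjusted p of 0.191. Its AdipoAI effect had the opposite sign in LPS-treated cells, -0.51 (adjusted p = 0.0148), from 7.31 ± 0.106 in LPS to 6.80 ± 0.117 in AdipoAI+LPS, and the interaction was -0.76 (adjusted p = 0.0402). That interaction lost its call with the scan as a block (adjusted p = 0.0882), with a block on the replicate number (0.0776), in the authors' processed table (0.0501) and without each array in turn other than AdipoAI replicate 2, at an adjusted p of up to 0.105.

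For Gapdh, the glycolytic enzyme, the difference was -0.02 with a 95% interval of -0.21 to 0.18. For Actb, cytoskeletal actin, it was 0.12, with an interval of -0.18 to 0.41. On the normalized scale both intervals exclude a change of 1.5-fold in either direction. Gapdh, at a DMSO mean of 17.55, lay near the top of that scale, where quantile normalization leaves little room to move. With normalization at the 75th percentile the differences were 0.03 for Gapdh and 0.14 for Actb. B2m, the light chain of MHC class I, had a difference of -0.18 (-0.43 to 0.07), Hprt, of purine salvage, -0.10 (-0.35 to 0.15), and Hsp90ab1, a chaperone, -0.06 (-0.31 to 0.19). The differences of Ppia, a peptidyl-prolyl isomerase, and Tuba1b, a tubulin, were -0.10 (-0.29 to 0.09) and -0.07 (-0.26 to 0.11). G6pd2, a glucose-6-phosphate dehydrogenase gene close in sequence to G6pdx, had a difference of 0.05 (-0.23 to 0.34), and a probe for one of these may also bind the other's RNA. The same limit applies to the tubulin and to Gapdh, Ppia and Rpl13a, which have near-identical copies in the genome.

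**Figure D3:**
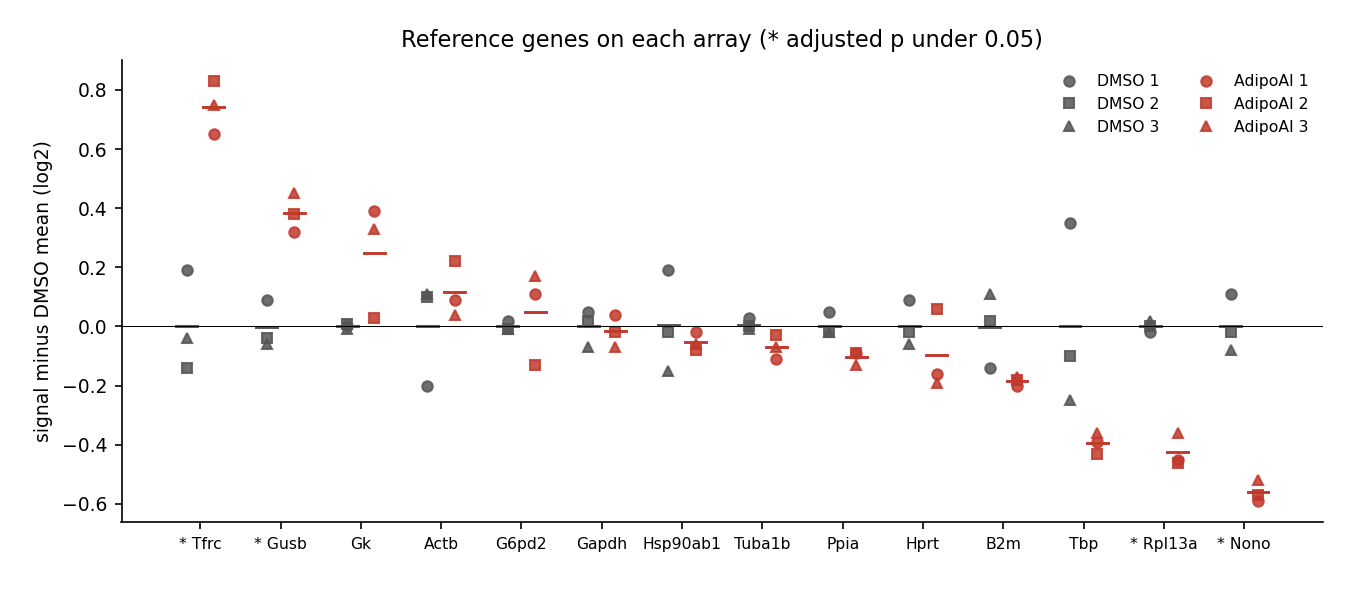
Log2 signal of each reference gene on the 6 arrays, less that gene's DMSO mean, in order of the AdipoAI change. Grey symbols are DMSO and red symbols AdipoAI, with 1 shape per replicate and a line at the group mean. Tfrc and Gusb lie above and Rpl13a and Nono below DMSO with an adjusted p under 0.05, marked by an asterisk.

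Probes named as lincRNAs, long intergenic non-coding RNAs, were mostly dim. Of 1827 on the array 317 (17.4%) passed the filter, against 51.3% of all probes, and 254 of the 317 (80.1%) lay in the dimmest 5 of the 10 signal groups. AdipoAI changed 25 of them (7.89%), against 16.2% of all probes and 12.3% when all probes are weighted to the same signal groups. Of the 25, 17 were higher and 8 lower. This split depended on the processing, with 13 and 13 after normexp, 17 and 15 in the authors' processed table, and 8 higher and 11 lower without AdipoAI replicate 3. The number called was 9 without DMSO replicate 2, 10 without AdipoAI replicate 1 and 13 without DMSO replicate 1. By name, 16 of 179 humanlincRNA probes, 8 of 117 mouselincRNA probes and 1 of 21 LINCRNAEXON probes were called. The sources used here do not say what these prefixes stand for.

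Of the 25, 21 were well above background on all 6 arrays, 16 of them higher and 5 lower. The largest rise was that of MM9LINCRNAEXON10569-_P1, which read 7.72, 8.18 and 8.72 in DMSO and 10.30, 10.04 and 10.50 in AdipoAI, a change of 2.07 ± 0.427 (adjusted p = 0.00857) or 4.20-fold. It was higher still with LPS, at 13.35 ± 0.863 in LPS and 13.04 ± 0.604 in AdipoAI+LPS, where AdipoAI made a difference of -0.31 (adjusted p = 0.646). The interaction, -2.39, had an adjusted p of 0.0648.

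The probe humanlincRNA0324-_P1 had the same order of groups with less scatter. It read 9.37, 9.84 and 10.00 in DMSO and 11.05, 11 and 11.06 in AdipoAI, a rise of 1.30 ± 0.173 (adjusted p = 0.000635), and 13.22 ± 0.193 in LPS and 13.27 ± 0.203 in AdipoAI+LPS. The AdipoAI effect was thus measured in resting cells and was 0.05 (adjusted p = 0.878) after LPS, and the interaction of -1.26 passed the test (adjusted p = 0.0192), though not with the scan as a block (-1.28, adjusted p = 0.0774).

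Other probes rose both with and without LPS. The probe humanlincRNA1894+_P1 read 4.50, 4.61 and 4.27 in DMSO and 5.29, 5.48 and 5.47 in AdipoAI, a rise of 0.95 ± 0.118 (adjusted p = 0.000412), and it rose by 1.02 in LPS-treated cells (adjusted p = 0.00021). The interaction was 0.07 with an SE of 0.167. After normexp the rise in resting cells was 0.32 (adjusted p = 0.003). The probe humanlincRNA2163-_P1 rose by 1.38 ± 0.316 (adjusted p = 0.0146) in resting cells and by 1.42 (adjusted p = 0.0110) in LPS-treated cells, with an interaction of 0.04 and an SE of 0.447. Its call in resting cells was lost without AdipoAI replicate 3 (adjusted p = 0.0545), AdipoAI replicate 1 (0.0574), DMSO replicate 1 (0.0512) or DMSO replicate 2 (0.0508). The probe humanlincRNA1396+_P1 read 6.27, 6.26 and 6.14 in DMSO and 7.01, 6.93 and 7.08 in AdipoAI, a rise of 0.79 ± 0.0935 (adjusted p = 0.000295), and rose by 0.40 with LPS (adjusted p = 0.0133). The interaction, -0.39 with an SE of 0.132, did not pass the test (adjusted p = 0.184), and after normexp the rise in resting cells was 0.48.

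The other 3 of the 8 largest rises had calls that depended on single arrays and on the processing. They were humanlincRNA0083-_P1 (1.25 ± 0.348, adjusted p = 0.0344), mouselincRNA0706+_P1 (1.02 ± 0.314, adjusted p = 0.0496) and humanlincRNA1050+_P1 (0.96 ± 0.265, adjusted p = 0.0332). Their adjusted p reached 0.115, 0.138 and 0.0968 when 1 array was left out, and after normexp the first rose by only 0.30 (adjusted p = 0.329) and the others by 0.95 and 0.64. Without AdipoAI replicate 3 the adjusted p was 0.115, 0.123 and 0.0509. With no filter on dim probes it was 0.0832, 0.111 and 0.0762. That of mouselincRNA0706+_P1 was 0.0601 at the 75th percentile, and that of humanlincRNA1050+_P1 was 0.0878 when only the 6 AdipoAI and DMSO arrays were fitted. The arrays whose loss ended a call were AdipoAI replicates 1 and 3 and DMSO replicates 1 and 2 for the first, any of the 6 for the second, and all but AdipoAI replicate 2 for the third. For humanlincRNA1050+_P1 AdipoAI replicate 1 stood highest, at 7.78 against 6.54 and 6.84, and without it the rise was 0.59.

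The falls were smaller. In order of size they were humanlincRNA1230-_P1 (-0.85 ± 0.216, adjusted p = 0.0237), mouselincRNA1559-_P1 (-0.58 ± 0.154, adjusted p = 0.0278), humanlincRNA1513-_P1 (-0.52 ± 0.136, adjusted p = 0.0254), humanlincRNA1046+_P1 (-0.52 ± 0.131, adjusted p = 0.0229) and humanlincRNA2438+_P1 (-0.43 ± 0.114, adjusted p = 0.0277). All 5 had groups that did not overlap. The brightest, humanlincRNA2438+_P1, read 14.00, 13.85 and 13.81 in DMSO and 13.34, 13.61 and 13.42 in AdipoAI. Each of the 5 lost its call on leaving out some single arrays, with adjusted p of up to 0.0901, 0.0853, 0.0926, 0.0762 and 0.0973. These arrays were AdipoAI replicate 1 and DMSO replicates 1 and 2 for humanlincRNA1230-_P1, all but AdipoAI replicate 3 for mouselincRNA1559-_P1, AdipoAI replicate 2 and DMSO replicates 1 and 3 for humanlincRNA1046+_P1, and AdipoAI replicates 1 and 3 and DMSO replicates 1 and 2 for humanlincRNA1513-_P1 and humanlincRNA2438+_P1. After normexp humanlincRNA1230-_P1 changed by -0.22 (adjusted p = 0.0612), mouselincRNA1559-_P1 by -0.35 and humanlincRNA1046+_P1 by -0.35. Of the 13 probes named here, 4 of the 8 that rose kept a limma adjusted p under 0.05 in all 16 alternatives. Of the 5 that fell, 0 did so.

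**Figure D4:**
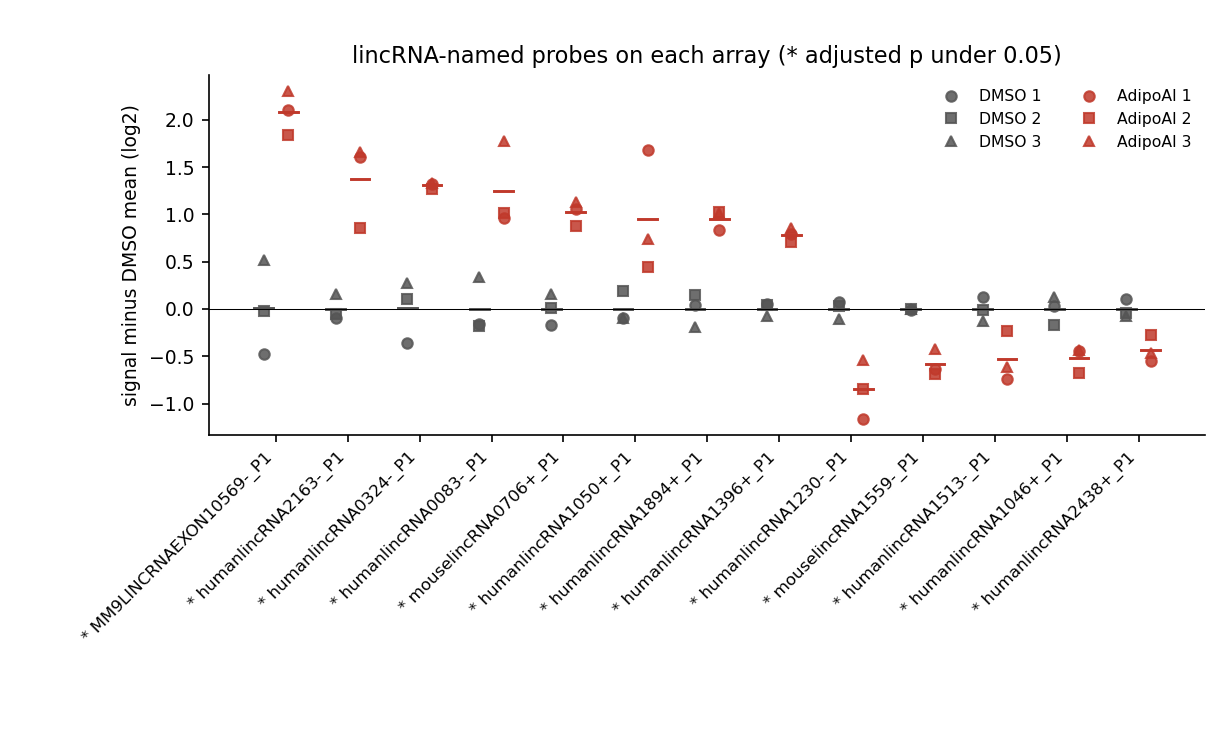
Log2 signal of 13 lincRNA-named probes on the 6 arrays, less the DMSO mean of each probe, for the 8 that rose most and the 5 that fell with AdipoAI. Grey symbols are DMSO and red symbols AdipoAI, with 1 shape per replicate and lines at the means. MM9LINCRNAEXON10569-_P1 rose by 2.07, and humanlincRNA1050+_P1 shows AdipoAI replicate 1 apart from the other AdipoAI arrays.

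Some probes were measured in 1 group alone. On the 6 arrays, 84 probes were well above background on all 3 AdipoAI arrays and on no DMSO array, and 393 on all 3 DMSO arrays and on no AdipoAI array. The arrays did not detect equal numbers of probes, with 29024 to 29687 of the tested probes on AdipoAI arrays and 29383 to 30715 on DMSO arrays, and the part of this in the counts was not tested. Leaving out DMSO replicate 3, which had the fewest on a DMSO array, gave 97 and 1025, and leaving out AdipoAI replicate 2 gave 156 and 661. A fold change against a group below background is only a lower bound, here the mean of the bright group against the dimmest signal still called well above background, or the dim probe's own signal where that was higher. The median bound was 1.90-fold for the probes measured in AdipoAI alone and 1.28-fold for those measured in DMSO alone. Of the 84, 33 had a bound over 2-fold, and of the 393, 37. These probes were chosen for being high in one group, so no count of them past a test is given.

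The same probes were read in the LPS-treated cells. Of the 84, 51 were well above background on all 3 AdipoAI+LPS arrays and 27 on all 3 LPS arrays. Of the 393 measured in DMSO alone, 52 were so on all AdipoAI+LPS arrays and 110 on all LPS arrays, and 169 and 134 were on none. The first group held 1 lincRNA-named probe, mouselincRNA0901-_P1, which was at least 1.68-fold higher with AdipoAI. The second held 7. Those with the largest bounds were humanlincRNA1025-_P1, at least 1.68-fold lower, humanlincRNA0194-_P1, at least 1.5-fold lower, humanlincRNA0367+_P1, at least 1.49-fold lower, and MM9LINCRNAEXON10888-_P1, at least 1.48-fold lower. The bounds of these 5 probes belong to the main processing and to probes chosen for the difference. They are descriptions, and no test of them is given. After normexp with an offset of 50, which draws dim values together, the difference of mouselincRNA0901-_P1 was 0.20 and those of the 4 others, in the order given, were -0.26, -0.22, -0.18 and -0.11, each smaller than its bound. For humanlincRNA0367+_P1 the fitted difference, -0.77 with all arrays, was -0.89 to -0.68 when 1 array was left out.

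Most of the changes seen in resting cells had the same direction in LPS-treated cells, as measured on other arrays. Of the 5031 called probes, 4470 (88.8%) had an AdipoAI+LPS minus LPS difference of the same sign, against 70.7% of all tested probes, and 2390 (47.5%) also had an adjusted p under 0.05 there. For 102 probes that test passed with the opposite sign. In all, 5677 probes (18.2%) were called in the LPS-treated cells. The AdipoAI+LPS arrays were all in the second scan and the LPS arrays in the first, so in those cells scan and treatment cannot be told apart, and AdipoAI replicate 3 was in the second scan too.

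The difference between the effects was itself tested. Over all probes 954 (3.06%) had an interaction with an adjusted p under 0.05, and 544 of these were among the 5031 (10.8%). For 451 of the 544 the effect with LPS was nearer to 0 or of the other sign. Probes were chosen here for a large change in resting cells, which makes that change larger on average than in new samples, so a smaller value in the second measurement is given as a description. The share with an interaction went up with the size of the change, from 5.39% of probes that changed by under 1.5-fold to 19.5% at 2- to 4-fold and 47.5% at over 8-fold. The share called in the same direction in LPS-treated cells went up as well, from 41.6% to 79.7%. The resting change sets the size classes and is also a term of the interaction, so the rising share with an interaction is a description. In place of 544, a scan block gave 335, and the fit without DMSO replicate 2 gave 301.

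**Figure D5:**
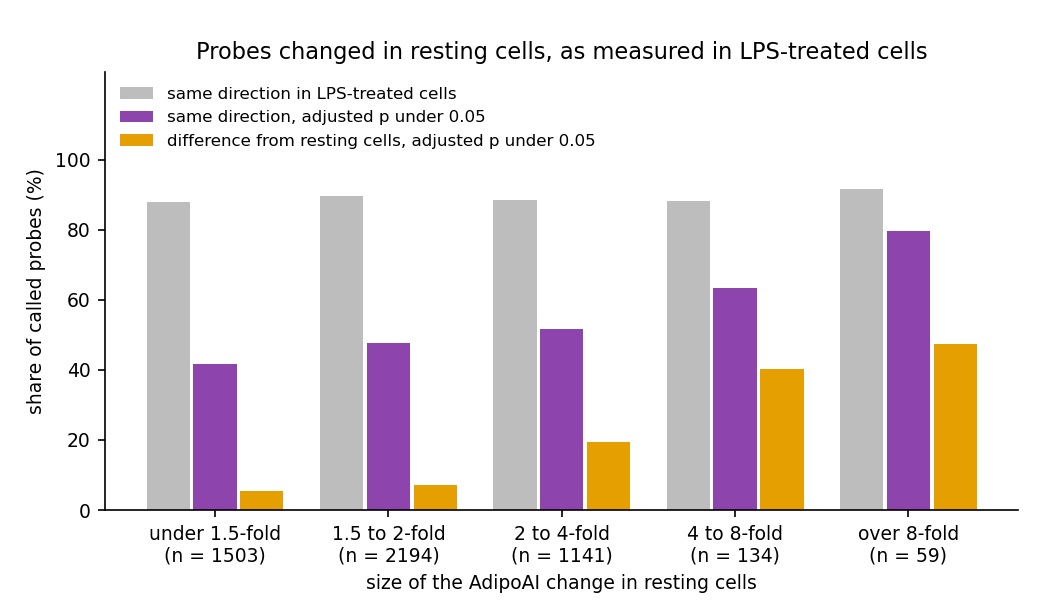
The 5031 probes called in resting cells, grouped by the size of their change. Bars give the percentage with the same direction in LPS-treated cells (88% to 91.5%), the percentage that also had an adjusted p under 0.05 there (41.6% to 79.7%), and the percentage whose effects differed by the interaction test (5.39% to 47.5%).

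Of 205 probes with a fitted change of at least 4-fold, 193 were called, and these show how the levels lay in the 4 groups. Among them, 28 of the 133 that rose and 21 of the 60 that fell had no array well above background in one group. For the 133 that rose, the median log2 signal was 5.63 in DMSO, 8.08 in AdipoAI, 7 in LPS and 9.33 in AdipoAI+LPS. The direction was the same with LPS for 123 of them, 101 were called there and 49 had an interaction. For the 60 that fell, the medians were 6.41 in DMSO, 3.83 in AdipoAI, 7.82 in LPS and 4.57 in AdipoAI+LPS. Of these, 49 fell with LPS present as well, 35 were called and 33 had an interaction. Over all tested probes, 18.2% were called in LPS-treated cells and 3.06% had an interaction. The DMSO arrays are the shared control of the AdipoAI and LPS levels here, so these medians are given side by side and not compared by a test.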

How the data were processed

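The scanner files deposited by the authors give 62939 spots per array, each with a linear intensity that Agilent Feature Extraction (11.0.1.1, per the submitters' processing notes) had background-subtracted, not normalized between arrays. The authors' deposited series table holds their processed log2 values of the same arrays, and the methods state quantile normalization in GeneSpring and a filter on low intensities. That table matched 60598 probes and was used as an alternative.

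From the scanner files, 1439 control spots, 300 negative spots and 221 probes with an outlier flag were left out, and the 20 spots of each RefSeq probe were averaged. No spot was saturated. The log2 intensities were quantile normalized over 12 arrays, and probes that at least 3 of the 6 arrays measured well above background were fitted with limma (3.58.1, R 4.3.3) as 4 group means without covariates, with Benjamini-Hochberg adjustment over the 31141 probes. The median standard error of a log2 change was 0.178, and the number of arrays limits the precision. The script was tested on simulated data. RefSeq probes were named by unversioned accession in a RefSeq gene table (GRCm38.p6), where 15 of 15 matched.

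Scan was read from the file headers. A block on scan rests on AdipoAI replicate 3, because no other group had arrays in both scans. Alternatives covered normalization at the 75th percentile, normexp with an offset of 50, the series table, the filter, the arrays fitted, the variance model, the replicate number and scan as blocks, the first scan alone, and each array left out. Same-numbered DMSO and AdipoAI arrays did not deviate together (r = -0.0646, -0.00173 and 0.0981), so the numbers were not taken as pairs.

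Named were all RefSeq probes, the 2 identifiers that rose and the 2 that fell most (well above background on all 6 arrays, adjusted p under 0.05), up to 8 lincRNA-named probes per direction by the same criteria, and up to 4 per direction of those measured in 1 group alone. The members and lists were chosen with earlier results of these data known. Gene list tests and marker checks were not run, because nothing used here pairs the identifiers with genes.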

Additional observations from a re-analysis of the deposited data

Results flagged for a closer look

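For 6 of the named probes the effect of AdipoAI differed between resting and LPS-treated cells by the interaction test of limma. ASMM10P006833 (-4.24, adjusted p = 0.00194) and ASMM10P031990 (-3.23, adjusted p = 0.00222) rose by less with LPS than without it. Their means in AdipoAI+LPS were 16.67 and 16.73, and the brightest tested probe had a mean of 17.8 over the 6 AdipoAI and DMSO arrays. Whether the top of the signal scale limited their rise was not tested. ASMM10P028071 fell by more with LPS (-1.12, adjusted p = 0.00147), though not detectably so after normexp (-0.27, adjusted p = 0.152). Gusb rose by more with LPS (0.72, adjusted p = 0.0177). The rise of humanlincRNA0324-_P1 was not seen with LPS (-1.26, adjusted p = 0.0192). Gk was lower with AdipoAI in LPS-treated cells and not detectably changed in resting cells (-0.76, adjusted p = 0.0402). In a fit that blocks on scan, 3 of the 6 kept an adjusted p under 0.05, namely the ASMM10P006833 (-4.70, adjusted p = 0.00684), ASMM10P031990 (-3.71, adjusted p = 0.0047) and ASMM10P028071 (-1.08, adjusted p = 0.0135) probes. Only the AdipoAI group had arrays in both scans, so the scan term rests on AdipoAI replicate 3. It cannot separate scan from treatment in the LPS-treated cells.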

How the results depend on the processing

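The 5031 calls at an adjusted p under 0.05 ranged from 2814 to 5227 when 1 array was left out and from 3461 to 6021 in the other alternatives. Those at the methods' threshold, 516, ranged from 468 to 694 with 1 array left out and were 161 with normexp and 338 among probes well above background on all 6 arrays. The 25 lincRNA-named calls ranged from 9 to 26 with 1 array left out. The 477 probes measured in 1 group alone became 1475 when 2 of 3 arrays were enough, and ranged from 611 to 1122 with 1 array left out. The 544 interactions were 844 with normexp and 335 with the scan as a block, and ranged from 301 to 477 with 1 array left out. The scan block gave the same calls in resting cells as leaving out AdipoAI replicate 3, the array it separates from its group. With the replicate number as a block, which the arrays do not bear out as a pairing, there were 4032 calls, 508 at the methods' threshold, 23 lincRNA-named and 376 interactions, and Gusb had an adjusted p of 0.0514 in resting cells. Among named probes no called change reversed. Differences near 0 changed sign in Gapdh (0.03 at the 75th percentile, 0.01 with the scan as a block and in the first scan alone, and -0.05 to 0.01 with 1 array left out), in G6pd2 (-0.01 with the scan as a block and in the first scan alone, and -0.01 to 0.14 with 1 array left out) and in Hsp90ab1 (-0.14 to 0.03 with 1 array left out). The causes were not tested. In the first scan alone, 3964 probes were called, 3319 of them among the 5031 and in the same direction.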

Other observations

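Control spots named for Gapdh and Pgk1, a pair of glycolytic enzymes, at the 3′ and 5′ ends, gave a measure of RNA quality that was chosen after its values were seen. The log2 signal of the 3′ less that of the 5′ spots for Gapdh was 1.54, 1.58 and 1.65 on the DMSO arrays and 1.28, 1.75 and 1.25 on the AdipoAI arrays. For Pgk1 it was 7.55, 7.55 and 7.51 in DMSO and 8.03, 7.94 and 7.59 in AdipoAI. The Gapdh values overlapped between the groups, and for Pgk1 the AdipoAI arrays were all higher, by a mean of 0.32. Their part in the calls was not tested.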
